A study of Homo sapiens with 19 samples.

Results

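The genes described here are 8 members of the interleukin-6 (IL-6) cytokine system: the ligands LIF, OSM, IL6 and IL11, the receptor chains IL6ST and OSMR, the transcription factor STAT3 and the inhibitor SOCS3. They were taken by gene name from the array's design, which holds 30962 gene names after spots flagged by the scanner software were left out, and the 8 names are read by 16 probes. The names were proposed from the levels of these genes on the same arrays in all 8 groups, so those levels and the differences made from them are given as a description. Calls of the genes in the fit over the whole array are counted below without a p, and nothing is read from them. For each gene the probe with the highest mean signal is used, and other probes are given beside it.

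All cells were THP-1, a single human monocytic leukaemia line, differentiated to macrophage-like cells with 30 nM of the phorbol ester PMA and rested before the experiment. They were then left untreated (UT) or given 0.1 mM vitamin C (vit C), and RNA was taken at 8, 24, 48 and 96 h. The arrays at these times numbered 2, 3, 2 and 3 for UT cells and 3, 2, 2 and 2 for vit C-treated cells, 19 in all, each from 1 RNA sample. Flasks were seeded in triplicate and samples of lower RNA integrity were not hybridized.

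The IL-6 family ligands act through receptor complexes that share the signalling chain gp130, encoded by IL6ST. LIF pairs gp130 with the LIF receptor, OSM pairs it with OSMR or the LIF receptor, and IL-6 and IL-11 first bind receptor chains of their own. The bound receptor activates JAK kinases and STAT3, and STAT3 induces SOCS3, which blocks the same receptors and closes a feedback loop. Macrophages make several of these ligands and also respond to them.

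Values are normalized log2 signals, that is log2 of the scanner software's processed signal minus the 75th percentile of the array, so that 0 is the signal of the 75th percentile probe and each step of 1 is a 2-fold change. That percentile lay between 289.6 and 622.8 intensity units on 17 arrays and at 784.5 and 900.8 on the vit C arrays at 96 h. All UT arrays at 8, 24 and 48 h and 1 UT array at 96 h were on slide 1. The other 2 UT arrays at 96 h, all vit C arrays at 8 and 24 h and 1 vit C array at 48 h were on slide 2. The remaining vit C array at 48 h was alone on slide 3, and both vit C arrays at 96 h were on slide 4, which was scanned on another day than the other slides. No slide held UT and vit C arrays of the same time, so at 96 h the slide and the treatment cannot be told apart, and at the other times they are linked only through the UT arrays at 96 h. The comparison of 24 h with 8 h lies within slide 1 for UT cells and within slide 2 for vit C-treated cells. Of 10 monocyte and macrophage genes, 9 were well above background on all arrays and LYZ was on 18. Of 10 genes of other cell types, CD3D, KRT5 and CDH5 were well above background on no array, and others, among them CD3E, PECAM1 and ALB, were on all.

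Some of the probe sequences that read these genes are shown because a gene's probes did not always give the same picture. The dimmer probes of LIF and SOCS3, as the array files hold them, were the following.
LIF: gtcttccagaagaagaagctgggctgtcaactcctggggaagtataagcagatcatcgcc
SOCS3: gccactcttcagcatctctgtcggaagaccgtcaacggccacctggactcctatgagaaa
A pair of STAT3 probes overlapped in sequence, and the 40 bases that they share are in capitals.
STAT3 probe P116805: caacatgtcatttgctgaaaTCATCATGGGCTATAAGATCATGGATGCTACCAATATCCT
STAT3 probe P107206: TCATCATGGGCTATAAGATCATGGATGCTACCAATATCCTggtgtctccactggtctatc
Their signals over the 19 arrays had a Pearson r of 0.984. The brightest and the dimmer SOCS3 probe had an r of 0.81, and the LIF pair an r of 0.51, with the dimmer LIF probe well above background on 7 of 19 arrays.

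Promoter sequence was found for 6 of the 8 genes in the RefSeq table of GRCh38.p14, and not for LIF and OSM. The 250 bases before the start of IL11 and of IL6, the ligands with an entry, are shown. No LIF or OSM window could be set beside them, and nothing about the response is read from the matches. The windows are chr19:55370464-55370713 on the minus strand for IL11 and chr7:22726950-22727199 on the plus strand for IL6. Capitals mark any match to the AP-1 motif TGANTCA or the STAT motif TTCNNNGAA, read on both strands.
IL11: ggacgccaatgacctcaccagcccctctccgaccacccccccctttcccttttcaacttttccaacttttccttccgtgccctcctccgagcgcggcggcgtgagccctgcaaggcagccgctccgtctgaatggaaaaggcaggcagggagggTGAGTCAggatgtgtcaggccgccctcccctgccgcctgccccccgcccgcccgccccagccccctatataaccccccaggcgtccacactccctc
IL6: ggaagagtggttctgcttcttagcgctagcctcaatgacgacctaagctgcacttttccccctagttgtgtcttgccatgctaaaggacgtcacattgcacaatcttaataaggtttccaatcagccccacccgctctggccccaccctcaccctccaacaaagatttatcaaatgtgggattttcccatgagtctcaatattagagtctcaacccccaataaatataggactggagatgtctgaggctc
The IL11 window held 1 AP-1 match, from 96 to 90 bases before the start, and no STAT match, and the IL6 window held neither. The windows of IL6ST, OSMR, STAT3 and SOCS3 held no match to either set of letters. Of 35116 promoter windows of the same length, 6.57% held the AP-1 letters and 6.57% the STAT letters.

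OSM was lower in vit C-treated than in UT cells at all 4 times and LIF at 8, 24 and 48 h, while the lower LIF at 96 h rested on dim signals and shrank to -0.18 (log2) with a floor of 20 intensity units. SOCS3 was lower at 8 and 24 h, and IL11 was higher from 24 h on. IL6 was near background at 8 h, its vit C arrays lay above UT at 24 h and below at 96 h, and the arrays overlapped at 48 h. OSMR was lower at 24 and 48 h, and STAT3 was lower at these times by less. At 48 h the STAT3 difference of -0.29 had a standard error of 0.30 and turned to 0.52 with the slide as a fixed term. IL6ST was higher at 96 h by its brightest probe, but was not tested there because its probes went opposite ways. Its difference of 1.30 fell to 0.18 in the lowest of the other settings.

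**Figure D1:**
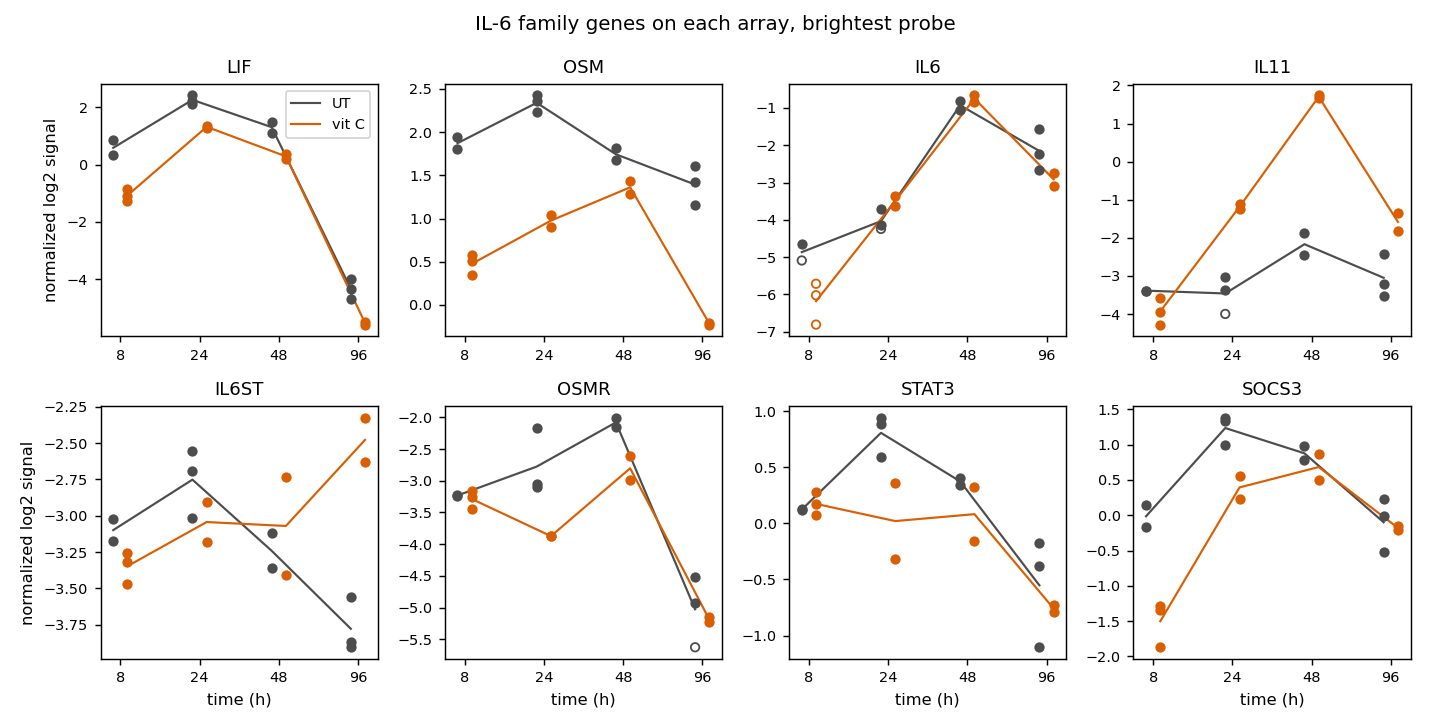
Normalized log2 signal (vertical axis) of the 8 genes at 8, 24, 48 and 96 h (horizontal axis), 1 point per array, with lines through the group means of UT (grey) and vit C-treated cells (orange); open points are not well above background. The vit C points of LIF and OSM lie below all UT points at each time, and those of IL11 lie above from 24 h.

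LIF encodes leukaemia inhibitory factor, a secreted ligand of the family. On the UT arrays it read 0.85 and 0.32 at 8 h, 2.23, 2.43 and 2.12 at 24 h, 1.5 and 1.11 at 48 h, and -3.99, -4.33 and -4.69 at 96 h. The vit C arrays gave -0.84, -1.28 and -1.11 at 8 h, 1.35 and 1.29 at 24 h, 0.19 and 0.38 at 48 h, and -5.48 and -5.59 at 96 h. At each of the 4 times every vit C array was below every UT array. The differences of the group means, vit C minus UT, were -1.66, -0.94, -1.02 and -1.19 on the log2 scale at 8, 24, 48 and 96 h, with standard errors of 0.24 to 0.26. The size at 96 h, where LIF was dim, depended on the processing: it was -0.18 with a floor of 20 intensity units, -0.58 with the mean of the LIF probes and -0.81 with normexp background correction. The mean of the probes gave -0.93 at 8 h and -0.64 at 48 h. In linear terms LIF was 3.16-fold lower at 8 h and 1.92-fold lower at 24 h.

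Time moved LIF by more than the treatment did. In both treatments the highest level was at 24 h and the lowest at 96 h, with 0.59 ± 0.37 (SD, n = 2), 2.26 ± 0.15 (n = 3), 1.31 ± 0.28 (n = 2) and -4.34 ± 0.35 (n = 3) in UT cells at 8, 24, 48 and 96 h. The means of vit C-treated cells were -1.08 ± 0.22 (SD, n = 3), 1.32 ± 0.04 (n = 2), 0.29 ± 0.13 (n = 2) and -5.53 ± 0.07 (n = 2). Of the 7 pairs of neighbours in the order of the 8 group means, the arrays of 5 did not overlap, and the pairs that did were vit C at 24 h beside UT at 48 h and UT at 8 h beside vit C at 48 h. The dimmer probe differed by -0.92 at 24 h (standard error 0.61), with no overlap, and by -0.20, -0.25 and 0.04 at 8, 48 and 96 h, where arrays overlapped. Because the sign of that probe turned at 96 h, where it was well above background on 1 array of each group, LIF was left out of the tested genes at 96 h by the study's rule on probes that go opposite ways.

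OSM encodes oncostatin M, a ligand made by activated macrophages, and its gene is the next protein-coding gene to LIF on chromosome 22. A single probe read it, well above background on all 19 arrays. UT cells gave 1.94 and 1.80 at 8 h, 2.36, 2.43 and 2.23 at 24 h, 1.67 and 1.81 at 48 h, and 1.42, 1.16 and 1.61 at 96 h. Vit C-treated cells gave 0.57, 0.51 and 0.34 at 8 h, 1.05 and 0.91 at 24 h, 1.28 and 1.44 at 48 h, and -0.20 and -0.23 at 96 h. No vit C array of any time reached the UT arrays of that time. The log2 differences were -1.40, -1.36, -0.38 and -1.61 in the order of time, with standard errors of 0.18 to 0.19. These were 2.63-, 2.57-, 1.30- and 3.05-fold lower levels.

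The narrow difference of OSM at 48 h came with a UT mean of 1.74 ± 0.10 (SD, n = 2), which was below the 24 h mean of 2.34 ± 0.10 (n = 3), while the vit C mean of 1.36 ± 0.11 (n = 2) was above its 24 h mean of 0.98 ± 0.10 (n = 2). Unlike LIF, OSM stayed high in UT cells at 96 h, at 1.39 ± 0.23 (n = 3). In the order of the 8 means, UT at 8 h and UT at 48 h overlapped, and so did UT at 96 h and vit C at 48 h, while the other 5 neighbouring pairs did not.

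IL6 encodes interleukin-6, the ligand that gives the family its name, and it was near background at the early times. UT cells gave -4.64 and -5.09 at 8 h, -4.15, -3.71 and -4.25 at 24 h, -0.80 and -1.05 at 48 h, and -2.23, -2.67 and -1.56 at 96 h. The vit C arrays gave -5.72, -6.81 and -6.02 at 8 h, -3.63 and -3.36 at 24 h, -0.66 and -0.84 at 48 h, and -3.10 and -2.73 at 96 h. At 8 h 1 of 2 UT arrays and 0 of 3 vit C arrays gave a signal well above background. No fold is therefore given at 8 h: the measured log2 difference was -1.32, and it was 0 with a floor of 20 intensity units and -0.15 with normexp correction. The log2 differences at 24, 48 and 96 h were 0.54, 0.18 and -0.76, with standard errors of 0.34 to 0.38. Vit C arrays lay above UT at 24 h and below it at 96 h, and at 48 h the arrays overlapped. The sign at 24 h depended on the background, since normexp correction gave -0.04. In both treatments the highest IL6 level was at 48 h, when LIF and OSM of UT cells were already below their 24 h levels.

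IL11 encodes interleukin-11, and of the 4 ligands it had the largest differences above UT, from 24 h on. At 8 h the UT arrays gave -3.39 and -3.38 and the vit C arrays -3.57, -4.28 and -3.94. UT levels stayed low, at -3.01, -3.37 and -4.0 at 24 h, -2.45 and -1.88 at 48 h, and -3.21, -2.42 and -3.52 at 96 h. Vit C-treated cells gave -1.12 and -1.25 at 24 h, 1.75 and 1.66 at 48 h, and -1.34 and -1.82 at 96 h. From 24 h on every vit C array was above every UT array, and at 8 h every vit C array was below. The probe was well above background on all arrays but 1 of UT at 24 h. The log2 differences were -0.54, 2.28, 3.87 and 1.47 at the 4 times, with standard errors of 0.34 to 0.38, that is 4.84-, 14.6- and 2.76-fold higher levels at the last 3 times. Normexp background correction gave log2 differences of 1.12, 3.09 and 0.71 at these times.

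The 3 highest of the 8 group means of IL11 were those of vit C-treated cells at 48, 24 and 96 h, and none of these neighbours overlapped. The 5 lower means, with all 4 UT groups among them, overlapped from one to the next. At 48 h the vit C arrays were on different slides, 2 and 3, and gave 1.75 and 1.66.

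**Figure D2:**
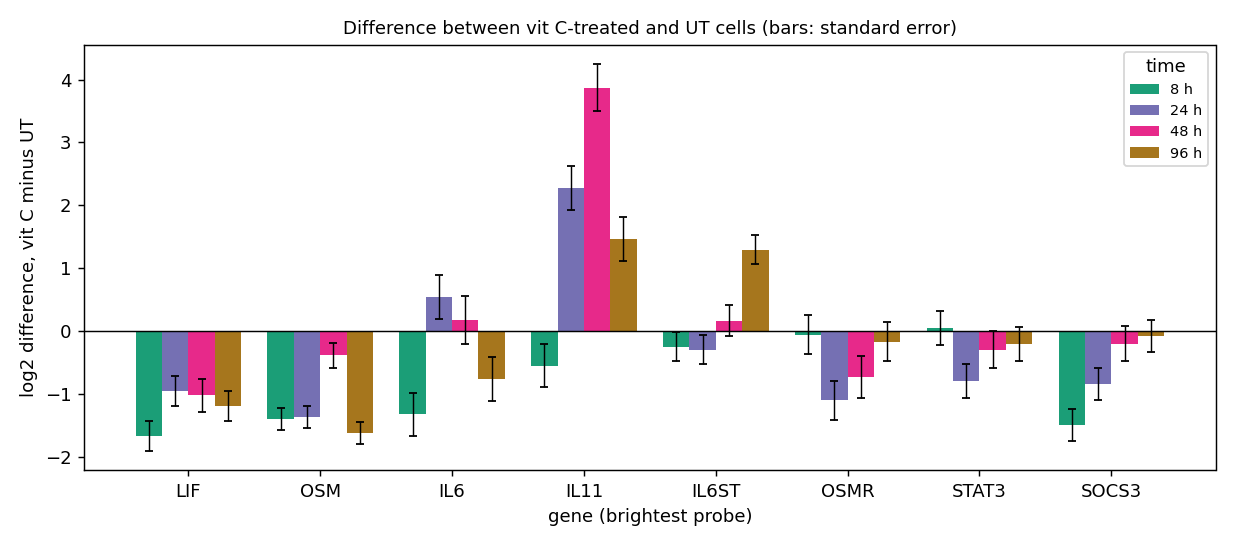
Log2 difference of the group means, vit C minus UT (vertical axis), for each of the 8 genes (horizontal axis), with a bar per time point and its standard error. The bars of LIF and OSM are below 0 at all 4 times, and those of IL11 reach 3.87 at 48 h.

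IL6ST encodes gp130, the chain shared by the receptors of the family. UT cells gave -3.17 and -3.02 at 8 h, -2.69, -2.55 and -3.01 at 24 h, -3.36 and -3.12 at 48 h, and -3.90, -3.56 and -3.87 at 96 h. With vit C it read -3.25, -3.47 and -3.32 at 8 h, -3.18 and -2.90 at 24 h, -2.73 and -3.41 at 48 h, and -2.63 and -2.33 at 96 h. The groups overlapped at 24 and 48 h, vit C lay below UT at 8 h by 0.25, and at 96 h it lay above with a log2 difference of 1.30 (standard error 0.23). The group means at 96 h were the ends of the whole order, with vit C highest at -2.48 ± 0.21 (SD, n = 2) and UT lowest at -3.78 ± 0.19 (n = 3). The second IL6ST probe passed the background test on 0 of 19 arrays and differed by -0.94 at 96 h, so the rule on opposite probes kept IL6ST out of the tested genes there. With normexp correction the difference of the brightest probe at 96 h was 0.26.

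OSMR encodes the OSM receptor chain. At 24 h the UT arrays gave -3.06, -3.10 and -2.17 and both vit C arrays -3.87, and at 48 h UT gave -2.01 and -2.15 and vit C -2.62 and -2.99. Vit C lay below UT at both times, with log2 differences of -1.1 (standard error 0.31) and -0.72 (0.34). At 8 h the arrays of UT cells, with a mean of -3.23 ± 0.01 (SD, n = 2), and those of vit C-treated cells, at -3.29 ± 0.14 (n = 3), overlapped, as did those at 96 h, -5.03 ± 0.56 (n = 3) and -5.19 ± 0.05 (n = 2). Like LIF, OSMR was lowest at 96 h in both treatments. The next brightest OSMR probe (r 0.88, well above background on 14 arrays) differed by -1.14, -0.33 and -0.82 at 8, 24 and 48 h, with no overlap, so the probes placed the largest difference at different times.

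STAT3 encodes the transcription factor that carries the signal to the nucleus. Its UT arrays gave 0.12 and 0.13 at 8 h, 0.59, 0.89 and 0.94 at 24 h, 0.41 and 0.34 at 48 h, and -0.17, -0.38 and -1.1 at 96 h. In vit C-treated cells it was 0.28, 0.07 and 0.17 at 8 h, 0.36 and -0.32 at 24 h, 0.32 and -0.16 at 48 h, and -0.79 and -0.73 at 96 h. The vit C arrays were below UT at 24 h by 0.79 (standard error 0.27) and at 48 h by 0.29 (0.30), and the groups overlapped at 8 and 96 h. With 1 array left out the log2 differences ranged from -1.13 to -0.45 at 24 h and from -0.53 to -0.05 at 48 h. With the slide as a fixed term they were -0.22 at 24 h and 0.52 at 48 h. The overlapping probe P116805 gave -0.61 at 24 h, and -0.21 at 48 h, where its groups overlapped. Another STAT3 probe, spotted 11 times per array and well above background on all of them, had an r of 0.36 with the brightest and differed by 0.17 at 24 h, where its groups overlapped.

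SOCS3 encodes the feedback inhibitor of gp130 signalling and is a known target of STAT3. UT cells gave 0.14 and -0.17 at 8 h, 1.33, 1.38 and 0.99 at 24 h, 0.78 and 0.98 at 48 h, and 0.23, -0.53 and -0.01 at 96 h. The vit C arrays gave -1.29, -1.34 and -1.87 at 8 h, 0.24 and 0.55 at 24 h, 0.86 and 0.51 at 48 h, and -0.15 and -0.20 at 96 h. Vit C lay below UT without overlap at 8 and 24 h, and the groups overlapped at 48 and 96 h. The log2 difference was -1.49 at 8 h (standard error 0.26), -0.84 at 24 h (0.26), -0.19 at 48 h (0.28) and -0.08 at 96 h (0.26). The dimmer SOCS3 probe gave -1.14, -1.04, -0.22 and 0.07 at the 4 times, with no overlap at 8, 24 and 48 h. In the order of group means, UT at 24 h was highest and vit C at 8 h was lowest, and both stood apart from their neighbours.

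**Figure D3:**
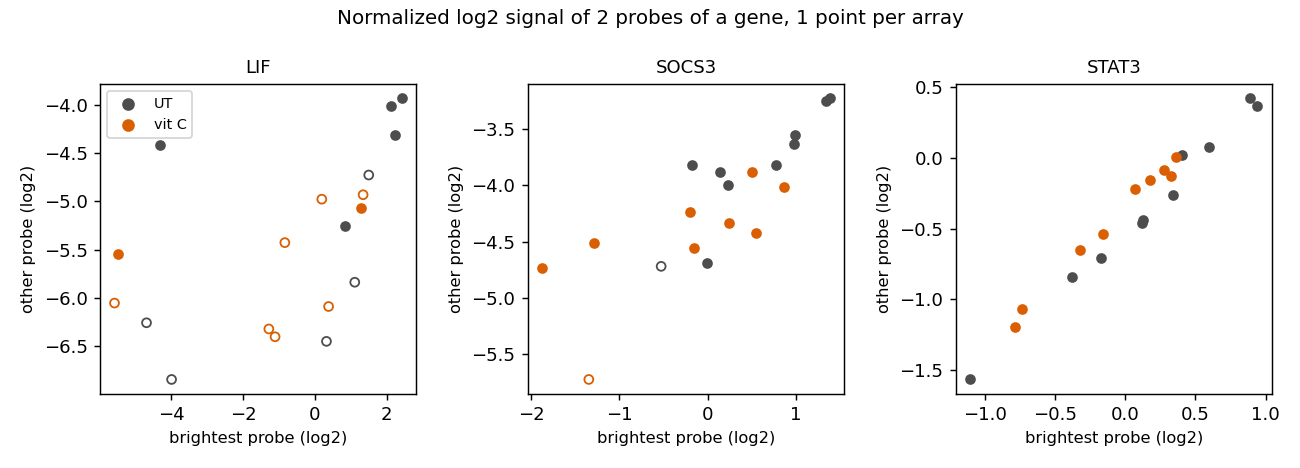
Normalized log2 signal of a second probe (vertical axis) against the brightest probe (horizontal axis) of LIF, SOCS3 and STAT3, 1 point per array, UT in grey and vit C in orange; open points are arrays on which the second probe is not well above background. The STAT3 pair, which shares 40 bases, lies along a line, and the LIF pair scatters.

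A probe was called when its log2 difference was at least 1 in size and its Benjamini-Hochberg adjusted p (q) from limma was at most 0.05. At 8 h 3 of the 6 genes tested, LIF, OSM and SOCS3, were called lower and none higher, where 0.55% of all genes tested were called in either direction and 0.223% lower. At 24 h OSM was called lower and IL11 higher among 6 tested, with 1.67% of all genes called, 0.84% higher and 0.833% lower. At 48 h LIF was called lower and IL11 higher among 8 tested, with 3.66% called, 2.09% higher and 1.57% lower. At 96 h OSM was called lower and IL11 higher among 3 tested, with 12.9% called, 2.73% higher and 10.2% lower. At 96 h 21.1% of all called genes were higher, against 56.1% after quantile normalization, which moved the median difference of all probes by 0.12. The share of all genes called rested on single arrays: 138 genes at 8 h became 13 without UT replicate 2, 436 at 24 h became 94 without vit C replicate 2, and 930 at 48 h became 284 without UT replicate 2. At 96 h 3396 became 477 without vit C replicate 1 and 5996 without UT replicate 3. Since the 8 genes were chosen on these values, nothing is read from these counts.

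The median log2 difference of the 8 genes was -0.93, -0.81, -0.24 and -0.18 at 8, 24, 48 and 96 h, beside medians of -0.05, -0.13, -0.02 and -0.15 over all genes. At 8 h 6 of the 8 lay below UT without overlap, as did 24.1% of all genes. At 24 h 5 lay below and 2 above, where 18.1% and 12.2% of all genes did. The counts were 4 below and 1 above at 48 h (29% and 21.8% of all genes) and 3 below and 2 above at 96 h (26.3% and 10.7%).

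With the slide as a fixed term, which rests on the UT arrays at 96 h of slides 1 and 2, OSM had differences of -1.36, -1.33 and -0.42 at 8, 24 and 48 h, and IL11 gave -0.78, 2.03 and 3.67. LIF gave -1.15, -0.43 and -0.60 and SOCS3 -0.99, -0.34 and 0.48 at these times, all smaller than or opposite in sign to those without the term. STAT3 turned to 0.62 at 8 h and 0.52 at 48 h, with -0.22 at 24 h, while OSMR moved further below UT, to -0.95, -2.0 and -1.44. In that fit IL11 at 48 h was the only call among the 8 genes at 8, 24 and 48 h, where 8, 20 and 136 of all genes were called. The difference at 96 h could not be fitted. Since no slide held both treatments at the same time, no treatment difference within a slide could be given.

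Leaving out 1 array at a time turned no called difference in sign. The calls of OSM at 24 and 96 h and of IL11 at 48 h were kept without any array. SOCS3 at 8 h was not called without any 1 of its 5 arrays, at -1.30 to -1.65, and LIF at 48 h without any 1 of its 4, at -0.82 to -1.21. LIF at 8 h was not called without UT replicate 1 (-1.40) or vit C replicate 2 (-1.56), and OSM at 8 h without UT replicate 2 (-1.47). IL11 was not called at 24 h without vit C replicate 2 (2.34), nor at 96 h without UT replicate 1 (1.39), vit C replicate 1 (1.23) or vit C replicate 2 (1.71).

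The step from 8 to 24 h could be read within 1 slide for each treatment. LIF, SOCS3, IL6 and OSM were higher at 24 h in both treatments, and IL11 was in vit C-treated cells. LIF was higher at 24 h by 1.67 in UT and by 2.39 in vit C-treated cells on the log2 scale (standard error 0.24 each), and SOCS3 by 1.25 and 1.90 (0.26 each). IL11 differed by -0.07 in UT cells, with overlap, and by 2.74 in vit C-treated cells (standard error 0.34 each). Other settings gave IL11 -0.09 to 0.22 in UT cells and down to 1.44 in vit C-treated cells. IL6 was higher by 0.83 in UT cells. In vit C-treated cells no array was well above background for IL6 at 8 h. With those 8 h signals raised to the lowest passing the background test on each array, IL6 was 2.67-fold higher at 24 h. That fold is no lower bound over all settings, and others gave log2 differences down to 0.60. OSM was higher by 0.47 and 0.50 (standard error 0.18 each).

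In UT cells LIF and SOCS3 were called higher at 24 h among 6 genes tested, where 2.66% of all genes were called and 1.37% were called higher. In vit C-treated cells LIF, SOCS3, IL6 and IL11 were called higher among 6 tested, where 5.62% were called and 2.95% were called higher. The difference of IL6 in vit C-treated cells, measured as 2.69, was 0.94 with a floor of 20 intensity units and 0.60 with normexp correction, and was called with neither. The call of SOCS3 in UT cells was lost without UT replicate 2 at 24 h (1.18) or without UT replicate 1 (1.41) or 2 (1.09) at 8 h. An added shift between the slides cancels in the difference of the treatment differences, 24 h minus 8 h. It was 2.82 for IL11 (standard error 0.49; 1.22 with normexp correction), 0.65 for SOCS3 (0.36), 0.03 for OSM (0.25) and -0.04 for IL6ST (0.33). For IL6 the measured 1.86 (0.49) rests on vit C signals not well above background at 8 h, and it was 0.54 with a floor of 20 intensity units and 0.11 with normexp correction. LIF, STAT3 and OSMR were set aside here because their probes went opposite ways. Their brightest probes gave 0.72, -0.84 and -1.04, while the other LIF probe gave -0.72, 2 other STAT3 probes 0.28 and 0.27, and the other OSMR probes 0.81 and 0.10. None of the 5 genes tested was called by limma, where 0.0314% of all genes were. At an unadjusted p under 0.05 limma counted 4 of the 8 genes and 14.2% of all genes, those set aside for opposite probes included, a count from which nothing is read. After quantile normalization 1 of the 8 genes, IL11, was called, and 20 of all genes were.

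**Figure D4:**
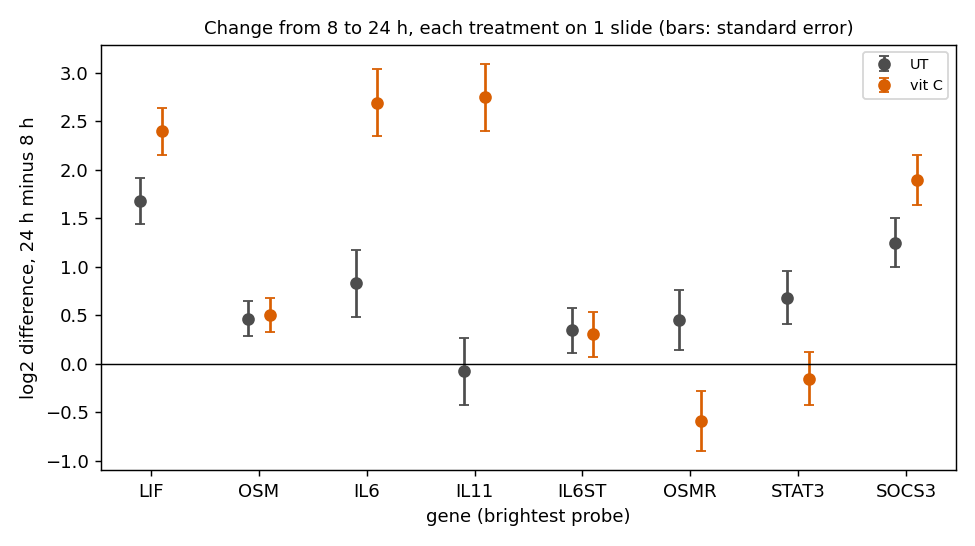
Log2 difference between 24 h and 8 h (vertical axis) for each gene (horizontal axis) in UT (grey) and vit C-treated cells (orange), points with standard errors, all UT arrays being on 1 slide and all vit C arrays on another. The IL11 points lie furthest apart, at -0.07 and 2.74, and those of OSM lie together.

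Across the 19 arrays the genes fell into loose groupings, given as a description, since the points share their groups and slides. LIF had a Pearson r of 0.85 with STAT3, 0.84 with OSMR and 0.66 with OSM, OSM had 0.70 with SOCS3, and IL6 had 0.67 with IL11. Within groups, with each group mean taken off, the same pairs had r of 0.47, -0.43, 0.03, 0.60 and -0.17.

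Among 25582 probes well above background on all arrays, the 5 gene names with a pattern most like LIF were LAT, MMP19, SEMA7A, TGFB3 and ABTB2, with r of 0.976 to 0.986. Those most like OSM were MRAS, FOSB, DKFZP564O0823, LOC284454 and ZNF444 (r 0.858 to 0.896), and those most like SOCS3 were BMP6, TNIK, DYRK3, FJX1 and CXorf6 (r 0.917 to 0.949). The 5 genes most like LIF had log2 differences, vit C minus UT, from -0.86 to -0.37 at 8 h and from -1.88 to 0.02 at 48 h, those most like OSM from -1.17 to -0.38 and from -1.40 to -0.01, and those most like SOCS3 from -1.06 to -0.64 and from -0.88 to -0.03. At 24 h the ranges were -1.1 to 0.03, -1.36 to -0.15 and -0.71 to -0.05, and at 96 h they were -1.01 to -0.14, -2.29 to -0.45 and -0.65 to 0.44. All 5 genes most like OSM were below 0 at each time, and all 15 genes were at 8 h. At 24, 48 and 96 h 4, 4 and 5 of those most like LIF were below 0, and 5, 5 and 2 of those most like SOCS3.

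The rest of the pathway was described by 48 other genes on the array: ligands, receptors, kinases and STATs, inhibitors, and genes known to be induced through STAT3. At 8 and at 24 h 35 were tested and 1 was called, HAMP, lower at both times, where 0.55% and 1.67% of all genes were called. At 48 h 1 of 34 was called higher and 3 lower, and at 96 h 2 of 36 higher and 4 lower, beside 2.09% higher and 1.57% lower of all genes at 48 h and 2.73% and 10.2% at 96 h. Their median log2 differences were -0.18, -0.15, -0.22 and -0.11 at the 4 times, beside the -0.05, -0.13, -0.02 and -0.15 of all genes. At 24 h against 8 h 3 of 42 were called higher in UT and 5 of 34 in vit C-treated cells, and none was called lower, beside 1.37% and 2.95% of all genes called higher. No gene of 34 was called by limma for the difference of the treatment differences, and 5 of the 48 had an unadjusted p under 0.05, as did 14.2% of all genes.

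**Figure D5:**
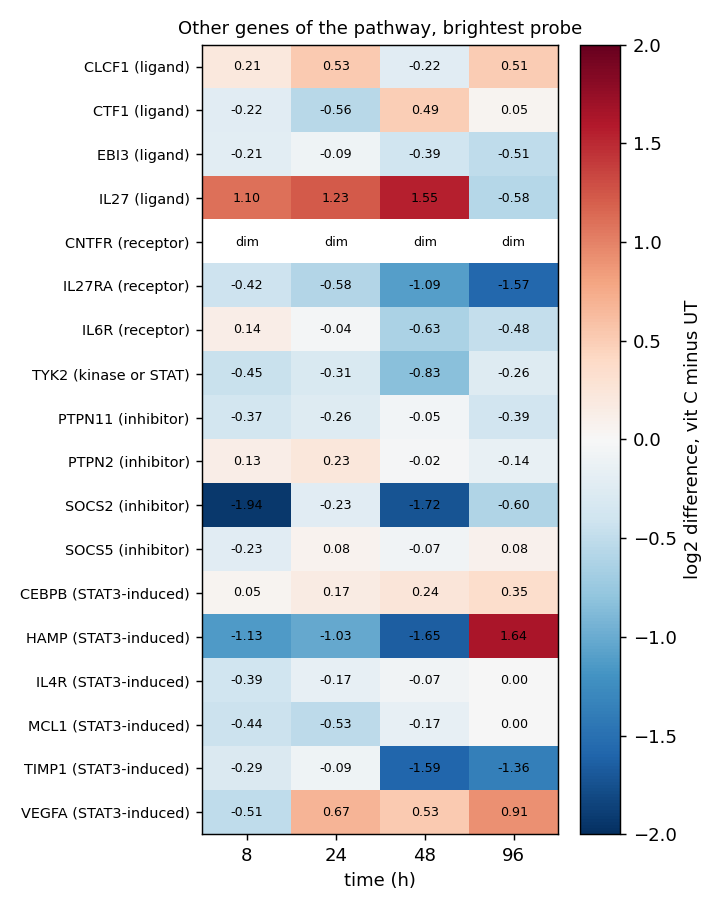
Log2 difference, vit C minus UT (colour and printed value), of other pathway genes (rows, with their role) at 8, 24, 48 and 96 h (columns); the rows are those called in any comparison and 1 or 2 uncalled genes of high signal per role, and "dim" marks values with neither group well above background. HAMP reads -1.65 at 48 h and 1.64 at 96 h.

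HAMP encodes hepcidin, the hormone that limits iron export and is induced through STAT3. Its means were 0.57 ± 0.13 (SD, n = 2), 0.47 ± 0.12 (n = 3), -1.36 ± 0.04 (n = 2) and -1.96 ± 0.07 (n = 3) in UT cells at 8, 24, 48 and 96 h. In vit C-treated cells they were -0.55 ± 0.24 (n = 3), -0.56 ± 0.08 (n = 2), -3.01 ± 0.08 (n = 2) and -0.33 ± 0.14 (n = 2). HAMP was called lower by 1.13 at 8 h (limma q = 0.0189), by 1.03 at 24 h (q = 0.0119) and by 1.65 at 48 h (q = 0.000659), and called higher by 1.64 at 96 h (q = 0.000137). With the slide as a fixed term HAMP differed by -1.05, -0.96 and -1.64 at 8, 24 and 48 h and was not called. With normexp correction it differed by -0.87 at 24 h and by -0.94 at 48 h and was called at neither time. Without UT replicate 3 (-0.99), vit C replicate 1 (-0.97) or vit C replicate 2 (-1.09) it was not called at 24 h. At 8 h it was not called without UT replicate 1 (-1.03), UT replicate 2 (-1.22), vit C replicate 1 (-1.16) or vit C replicate 2 (-0.99). TIMP1, an inhibitor of matrix metalloproteinases, was called lower by 1.59 at 48 h (limma q = 0.00484) and by 1.36 at 96 h (q = 0.00454), the latter not without vit C replicate 2 (-1.26).

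VEGFA, which encodes a growth factor for blood vessels, was called higher at 48 h through 1 of its probes, by 1.63 (limma q = 0.00537), while its brightest probe differed by 0.53. That call was lost without UT replicate 2 (1.53). Among the receptors IL27RA, the chain for IL-27, was called lower by 1.09 at 48 h (q = 0.0317) and by 1.57 at 96 h (limma q = 0.00154), and at 48 h it was not called without any 1 of its 4 arrays (-0.90 to -1.28). SOCS5 was called higher at 96 h through its dimmer probe, by 1.38 (limma q = 0.0348), while its brightest probe differed by 0.08. With normexp correction SOCS5 gave 0.27, not called. SOCS5 was not called without 4 of the 5 arrays, each left out in turn. CNTFR and a second probe of SOCS2 were called lower at 96 h, but neither was well above background in either group, so no fold is given.

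Of the ligands, CLCF1 was called higher at 24 h than at 8 h by 1.71 in UT (limma q = 0.00158) and by 2.04 in vit C-treated cells (q = 0.000184). EBI3, a subunit of IL-27, was called higher by 1.19 (q = 0.00528) and 1.31 (limma q = 0.0012), in UT cells not without UT replicate 1 (1.21) or 2 (1.16) at 8 h. TIMP1 was called higher by 1.88 (limma q = 0.000547) and 2.08 (q = 0.000107), and CEBPB and VEGFA were called in vit C-treated cells, by 1.04 (q = 0.00801) and 1.62 (limma q = 0.0196), with 0.92 and 0.44, not called, in UT cells. The difference of these differences was not called for VEGFA (limma q = 0.457) and was not tested for CEBPB, whose probes went opposite ways. The call of CEBPB was lost without vit C replicate 1 (1.09) or 2 (0.99) at 24 h.

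Uncalled genes of high signal in each role were IL27 and CTF1 among ligands, IL6R among receptors, TYK2 among kinases and STATs, PTPN11 and PTPN2 among inhibitors, and MCL1 and IL4R among STAT3-induced genes. IL27, whose product binds IL27RA with gp130, had log2 differences of 1.1, 1.23 and 1.55 at 8, 24 and 48 h and of -0.58 at 96 h, each with no overlap, and none was called (standard errors 0.38 to 0.42). IL6R, the IL-6 binding chain, differed by 0.14 and -0.04 at 8 and 24 h, and by -0.63 and -0.48 at 48 and 96 h without overlap.

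These are bulk RNA samples, in which fewer cells of a kind and less RNA per cell cannot be told apart. The summed linear signal of the 10 monocyte and macrophage genes, in units of the array's 75th percentile, ran from 322.6 to 482.6 over the UT groups and from 327.9 to 464.4 over the vit C groups, and 73.9% to 84.6% of it was CSF1R. Without CSF1R it was lower with vit C at 8 h (57.1 to 62.2 against 67.2 to 71.7), higher at 48 h (88.3 to 93.7 against 81.2 to 82.7), and overlapped at 24 and 96 h. Single genes of the list went both ways: ITGAM and ITGAX were below UT without overlap at all 4 times, and CD163 was above at 8, 24 and 48 h and CD14 at 24 and 48 h. The signal of the 10 genes of other cell types was 94.5% to 98.5% PECAM1, which monocytes also make. The sums were 26.5 to 27.3 in UT and 25.2 to 28.8 in vit C-treated cells at 8 h, 14.3 to 17 and 10.3 to 13.5 at 24 h, 37.5 to 39.4 and 27.7 to 28.4 at 48 h, and 42 to 62.7 and 25.9 to 27.8 at 96 h. Without PECAM1 they lay between 0.48 and 1.06 on all arrays. Their part in the differences was not tested.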

How the data were processed

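THP-1 RNA was hybridized to 19 one-colour Agilent whole-genome arrays of 52857 spots each and scanned with Feature Extraction, which, per the file headers, detrended the signals without a background subtraction. The deposited intensity (gProcessedSignal) was the starting unit, and the authors' log2 value table was used as an alternative. Control spots and spots flagged as outliers were left out, repeat spots were averaged, and log2 values were centred on the 75th percentile of each array, leaving 50061 probes. A limma fit (limma 3.58.1, R 4.3.3) of 8 group means over all 19 arrays, 2-sided, was made without covariates. In each comparison genes with probes of opposite sign were set aside, as in the study, and Benjamini-Hochberg adjustment covered the others. A call needed a log2 difference of at least 1 and an adjusted p of at most 0.05. The study's plain t-test was kept as an alternative. The flasks of a group were separate samples by their labels, with nothing on independent cultures, so p-values measure the spread between these samples.

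The 8 genes and the gene lists were chosen with earlier results of these data known. Other pathway genes were named where called, with up to 2 uncalled genes of highest signal per role (some are not reported here), and like-patterned genes by the 5 highest Pearson r. A level is well above background by the software's own test. Where no array of a group passes it, a fold, if given, uses the lowest passing signal of each array in place of lower ones. Replicate numbers were not used to pair the samples: of 8 same-numbered pairs of arrays, the correlation of deviations from the group means was -0.344 to 0.142. In groups of 2 arrays these deviations mirror each other, so the check cannot exclude pairing. Other settings covered scaling, background, floor, dim and opposing probes, tests, slides, the replicate block and single arrays, and the setting that kept outlier spots was chosen after seeing the data. The fit was tested on simulated data. Figures were drawn with matplotlib 3.10.9.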

Additional observations from a re-analysis of the deposited data

Results flagged for a closer look

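In each of the following 7 genes every vit C array lay below every UT array at 1 or more times and above at others. They were looked for among the 8 genes and the other pathway genes named above. Of all genes, 24.1%, 18.1%, 29% and 26.3% lay below without overlap at 8, 24, 48 and 96 h. At 24, 48 and 96 h 12.2%, 21.8% and 10.7% lay above. The share of all genes that lay below at 1 time and above at another was not counted. Whether the differences varied with time was not tested on these grounds, and at 96 h treatment and slide cannot be told apart.

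All values are log2 differences, vit C minus UT. IL11 differed by -0.54 at 8 h and by 2.28, 3.87 and 1.47 at 24, 48 and 96 h. IL6 differed by -1.32 at 8 h, where no vit C array was well above background, by 0.54 at 24 h and by -0.76 at 96 h. IL6ST differed by -0.25 at 8 h and by 1.30 at 96 h, while its other probe, not well above background on any array, went the opposite way at both times (0.72 and -0.94).

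HAMP, which encodes hepcidin, differed by -1.13, -1.03 and -1.65 at 8, 24 and 48 h and by 1.64 at 96 h. CLCF1, a ligand of the CNTF receptor, differed by 0.53 at 24 h, -0.22 at 48 h and 0.51 at 96 h. The brightest VEGFA probe differed by -0.51 at 8 h and by 0.67, 0.53 and 0.91 at the later times, and at 8 and 24 h the VEGFA probes went opposite ways. IL27, a ligand subunit, differed by 1.1, 1.23 and 1.55 at 8, 24 and 48 h and by -0.58 at 96 h, and none of these was called. Groups held 2 or 3 arrays, too few to look for a single array standing apart.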

How the results depend on the processing

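No difference that was called turned in sign under any setting. The methods' t-test called 0 of the 8 genes and 0 of the other pathway genes in all 6 comparisons it could test, where limma called 3, 2, 2 and 2 of the 8 at 8, 24, 48 and 96 h, 2 and 4 for 24 h minus 8 h in UT and vit C-treated cells, and 1, 1, 4, 6, 3 and 5 of the others; at an unadjusted p under 0.05, genes set aside for opposite probes included here and below, the t-test had 3 to 6 and 12 to 15, and 15.7% to 22.3% of all genes. It was not run for the difference of the differences. Of all genes it called 12 at 8 h and 2 at 48 h, and none in the other comparisons. A fit of each comparison's own groups called 0 of the others at 8, 24, 48 and 96 h (12 to 22 at an unadjusted p under 0.05) and 1, 0 and 0 of the 8 genes at 24, 48 and 96 h and 0 for 24 h minus 8 h in UT cells (3 to 5 unadjusted; of all genes 18.5% to 24.6% in these comparisons). Over all genes that fit called 499, 199, 0 and 3 at 8, 24, 48 and 96 h, and 103 for 24 h minus 8 h in UT cells. With the slide as a fixed term 0 of the others (8 to 9 unadjusted) and 0, 0 and 1 of the 8 genes (4 to 5 unadjusted at 8 and 24 h; of all genes 8.82% to 11.3% at the 3 times) were called at 8, 24 and 48 h, and 96 h could not be fitted. Of all genes 8, 20 and 136 were called in that fit. With the slide as a random block the counts were 2 of the others at 24 h and 1 of the 8 at 48 h (313 and 797 of all genes). Normexp correction gave 0 of the others at 24 h (19 unadjusted) and 3 at 96 h. It gave 1 of the 8 at 48 h and 1 at 96 h, and 247, 463 and 795 of all genes at 24, 48 and 96 h. Quantile normalization gave 2 of the others at 24 h and 3 at 96 h (561 and 1001 of all genes). It gave 1 of the 8, IL11, for the difference of the differences (20 of all genes). With opposing probes kept 2 of the others were called at 24 h, and 1 and 4 of the 8 at 48 and 96 h (458, 932 and 3774 of all genes). Dim probes left out gave 2 of the others at 8 h (214 of all genes). Of the 8, the floor of 20 and the percentile over probes well above background each gave 1 at 48 h (745 and 951 of all genes). The mean of a gene's probes gave 1 at 48 h and 1 for 24 h minus 8 h in UT cells (758 and 587 of all genes). The median of all probes moved from the main setting by up to 0.29 in size, at 96 h with normexp correction. Quantile normalization moved it by 0.12 at 96 h.

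The replicate numbers did not pair the samples. With the replicate block 0 of the other pathway genes were called at 24 h (17 at an unadjusted p under 0.05), where HAMP gave -0.98, SOCS3 at 8 h was not called (-1.40) and LIF at 96 h was (-1.28). The block used the numbers in the sample titles, which at 48 h differ from those in the sample descriptions.

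With 1 array left out, the number called ranged from 1 to 2 of the 8 genes at 8 h, 1 to 2 at 24 h, 1 to 1 at 48 h, 1 to 3 at 96 h, 1 to 2 for 24 h minus 8 h in UT and 4 to 4 in vit C-treated cells. For the other pathway genes the ranges were 0 to 1, 0 to 1, 2 to 4, 2 to 10, 2 to 3 and 5 to 5. Over all genes the calls at 8, 24, 48 and 96 h numbered 138, 436, 930 and 3396, and with 1 array left out 13 to 82, 94 to 362, 284 to 530 and 477 to 5996. At 96 h 10 of the other pathway genes were called without UT replicate 3 and 2 without vit C replicate 2.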
